A study of Mus musculus with 4 samples.

Results

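Hematopoietic stem cells and early multipotent progenitors were picked out of sorted mouse bone marrow by their transcripts, 3608 of 26943 cells, or 13.4%. A cell was a member if it held at least 4 unique molecular identifiers (UMIs, each standing for 1 captured transcript) over 6 genes, Hlf, Mecom, Adgrl4, Myct1, Angpt1 and Gcnt2, and stayed under limits on transcripts that mark 6 committed lineages. Those limits were at most 1 UMI of Car1 (erythroid), 3 of Pf4, Itga2b, Gp1bb and Treml1 together (megakaryocyte), 1 of Dntt (lymphoid), 1 of Ms4a2 and Csrp3 (basophil or mast cell), 1 of Cd79a, Igll1 and Vpreb1 (B cell) and 4 of Gstm1, Fcnb, Cebpe and Trem3 (neutrophil). Of the 26943 cells, 7875 had enough UMIs of the 6 stem genes, and 4267 of those were over at least 1 limit. The neutrophil limit was exceeded by 1488 of them, the basophil limit by 1136, the megakaryocyte limit by 1011, the lymphoid limit by 531, the erythroid limit by 454 and the B cell limit by 95. The members were thus selected on measured UMI counts of these genes, and their levels beside the remaining 23335 cells are a description with no test.

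A stem cell at the top of the blood system can renew itself and give rise to every blood lineage, and it divides seldom. Its daughters, the multipotent progenitors, divide more and start to transcribe genes of myeloid, lymphoid or megakaryocyte and erythroid cells before they commit. Hlf and Mecom encode transcription factors that maintain stem cells, Meis1 encodes a partner of the Hox proteins, and Angpt1 encodes a ligand of the receptor Tek.

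The marrow came from wild-type mice, strain and age not given in the sources used here, and every mouse of both groups had received E0771 cells, a mouse breast cancer line, 3 days before surgery. Sham surgery was done in the control group and ligation of the femoral artery, which feeds the hind limb, in the group here called surgery. Marrow was collected 9 days after the operation and sorted as lineage-negative cKit+ cells, Sca1+ or Sca1-, so no value here describes mice without tumour cells or unsorted marrow. Each of 2 captures, batch 1 and batch 2, held 2 sham and 2 surgery replicates, which makes 4 per group.

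Replicates were told apart by hashtags, short DNA labels put on the cells of each replicate before pooling. The 4 labels are shown in full because each statement about surgery rests on them; every base is in capitals as the whole run identifies the replicate, and the same 4 were used in both batches.
sham 1: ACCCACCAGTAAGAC
sham 2: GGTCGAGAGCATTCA
surgery 1: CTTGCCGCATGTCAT
surgery 2: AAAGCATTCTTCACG
The treatment label given to each whole library names batch 1 as ligation and batch 2 as sham, in contrast with the hashtag names; the hashtag names were followed, and no transcript can check them. Whether a replicate was 1 mouse or several is not stated, so p-values measure only the spread between these replicates. Batch 1 gave 2081 members and batch 2 gave 1527, with medians of 6082 and 9196 UMIs per member. The 8 replicates held between 218 and 834 members and between 2192686 and 6293090 UMIs. The 2 captures shared 5 barcodes, 4 of them among the 26943 cells and 0 among the members.

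The 7 marker genes were each higher in members than in the remaining cells, and Meis1 is the only one of them that the selection did not use. Levels are in CPM, a gene's UMIs divided by the UMIs of all genes, summed over the cells named and scaled to 1e6; they are not corrected for transcript length and are not compared between genes. Meis1 stood at 360 CPM in members, from 316 to 438 over the 8 replicates, and at 57.4 CPM in the remaining cells, from 49.0 to 66.5. The 2 ranges did not overlap, and 78.6% of members held a Meis1 UMI against 23.8% of the rest. Hlf stood at 92.5 CPM against 10.6, Mecom at 112 against 13.5, Adgrl4 at 493 against 63.0, Myct1 at 82.5 against 7.45, Angpt1 at 972 against 135 and Gcnt2 at 169 against 22.97, as the selection had fixed.

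Promoters of the transcription factors among the markers, Hlf, Meis1 and Mecom, are shown because each gene had a higher CPM in members than in the remaining cells. For Hlf and Mecom the selection had fixed this, and whether single cells transcribed the genes together was not tested. Each is the 250 bases before a transcription start on the gene's own strand, which is the minus strand for all of them, from RefSeq on GRCm38.p6. Capitals mark matches to 4 short motifs searched on both strands, namely AGATAA for GATA factors, CAGCTG for E-box factors, TGTGGT for RUNX factors and CCGGAA for ETS factors, none overlapping another here.
Hlf chr11:90390918-90391167: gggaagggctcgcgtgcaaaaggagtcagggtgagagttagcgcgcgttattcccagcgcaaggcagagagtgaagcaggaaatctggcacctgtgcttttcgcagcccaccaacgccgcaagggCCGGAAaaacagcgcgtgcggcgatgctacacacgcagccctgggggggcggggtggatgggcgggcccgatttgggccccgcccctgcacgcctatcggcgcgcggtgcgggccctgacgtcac
Meis1 chr11:19018970-19019219: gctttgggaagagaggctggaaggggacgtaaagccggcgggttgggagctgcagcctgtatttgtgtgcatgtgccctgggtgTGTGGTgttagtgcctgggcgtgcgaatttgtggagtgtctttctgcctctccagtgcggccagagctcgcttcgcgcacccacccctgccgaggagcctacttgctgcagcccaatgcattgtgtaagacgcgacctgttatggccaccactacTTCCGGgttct
Mecom, upstream start chr3:30509760-30510009: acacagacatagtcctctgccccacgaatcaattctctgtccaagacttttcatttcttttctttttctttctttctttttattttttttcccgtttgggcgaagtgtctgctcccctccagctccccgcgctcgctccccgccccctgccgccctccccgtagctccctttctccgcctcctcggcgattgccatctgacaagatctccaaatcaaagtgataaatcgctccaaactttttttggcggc
Mecom, downstream start chr3:30013205-30013454: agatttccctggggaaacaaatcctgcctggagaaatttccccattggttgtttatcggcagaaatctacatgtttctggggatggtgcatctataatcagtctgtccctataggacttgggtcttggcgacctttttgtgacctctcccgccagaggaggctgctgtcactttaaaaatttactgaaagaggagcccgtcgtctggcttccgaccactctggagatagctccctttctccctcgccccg
The Hlf promoter held 1 ETS match 125 bases before the start, and the Meis1 promoter held a RUNX match 166 bases and an ETS match, on the opposite strand, 11 bases before it. Neither Mecom start had any of the 4 in its window. Among 32851 mouse promoters of this length, 12.03% held the ETS motif, 14.05% the RUNX motif, 9.99% the GATA motif and 13% the E-box motif, and a match is a run of letters, not a measured binding site.

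Angpt1 carried most of the selection. It gave 50.6% of the members' stem-gene UMIs, Adgrl4 (an adhesion receptor also found on endothelium) 25.7%, Gcnt2 (a glycosyltransferase) 8.81%, Mecom 5.81%, Hlf 4.81% and Myct1 4.29%. Members had a median of 13 such UMIs, with quartiles of 7 and 23 and a range from 4 to 79. UMIs of at least 3 of the 6 genes were present in 2661 members (73.8%), of all 6 in 374, and of only 1 in 303 (8.40%). The 341 members with exactly 4 stem-gene UMIs had Meis1 at 128 CPM, Mpo (myeloperoxidase) at 3528 and Elane (neutrophil elastase) at 2387. Just outside the threshold, 507 cells with 3 UMIs had Meis1 at 104, Mpo at 3260 and Elane at 2422. The 1988 members with 12 or more had Meis1 at 472, Mpo at 1786 and Elane at 545, so the lower end of the members was near cells left out and the upper end was not.

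Stem cell transcription factors outside the rule were mostly higher in members. Of 32 listed genes, Meis1 included, 29 had a higher CPM in members than in the remaining cells. Gata2 stood at 120 against 58.0, Erg at 163 against 77.0, Etv6 at 861 against 334, Runx1 at 640 against 346 and Lmo2 at 383 against 166. Msi2, an RNA-binding protein of stem cells, stood at 430 against 165. Hmga2, a chromatin protein of growing and fetal cells, stood at 55.9 against 6.15, the widest ratio (9.08) of any gene with at least 50 CPM outside the rule. It was higher still, at 102 CPM, in the lymphoid-primed progenitors described below, which are among the remaining cells. Gfi1 was lower in members than in the remaining cells, at 24.2 against 60.7, as was Gfi1b at 17.6 against 26.6. All 19 measured genes of the Hox list, which holds Hox genes and their partners, were higher, with a summed level of 748 CPM against 220; Hoxa9 stood at 51.4 against 15.8.

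**Figure D1:**
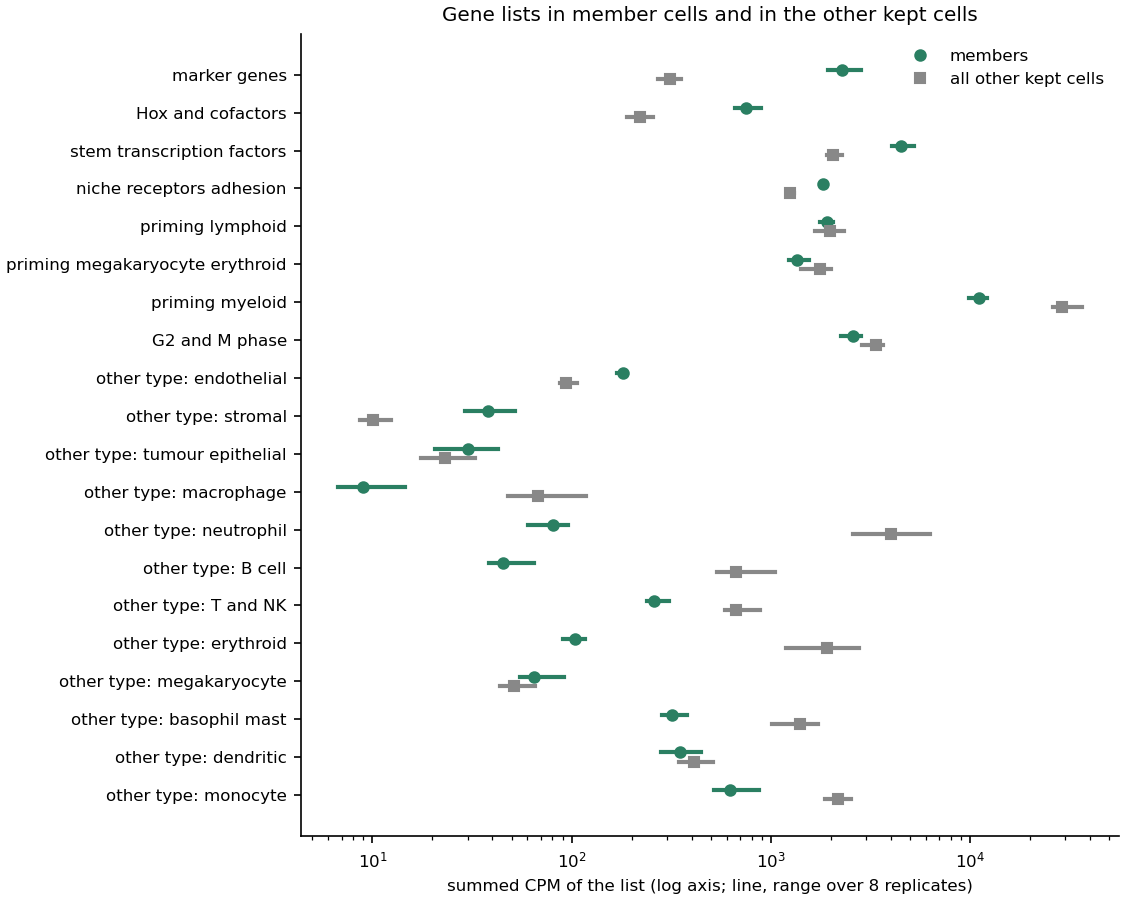
Summed CPM of each gene list, on a log axis, in members (circles) and all other kept cells (squares), with lines for the range over the 8 replicates. The neutrophil list (80.9 against 4018) and the erythroid list (104 against 1904) are far lower in members, and the Hox list (748 against 220) is higher. The selection limited other genes of the neutrophil and erythroid lineages, so those sums in members were partly set by the rule.

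Receptors that place stem cells in their niche were part of the same profile. Kit, the receptor used in the sort, stood at 228 CPM against 92.8. Adgrg1, an adhesion receptor, stood at 350 against 74.97, Tek, the Angpt1 receptor, at 8.52 against 1.93 and Tgfbr2 at 65.3 against 21.6. Cxcr4, the receptor that holds cells in marrow, was lower at 64.1 against 107. In the cytokine group 17 of 32 genes were higher in members, among them Flt3, a receptor of multipotent and lymphoid progenitors, at 118 against 29.9 and Il1r1 at 15.2 against 4.34. Epor, the erythropoietin receptor, was lower at 2.44 against 13.2, and so was Ifngr1 at 98.8 against 221.

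Antigens that mark long-term stem cells in the field were found in few members. Procr stood at 1.96 CPM in members, Slamf1 at 3.82, Ly6a (which encodes Sca1) at 2.44, Fgd5 at 1.74 and Vwf at 3.92. To compare shares of cells at equal depth, 3049 members with at least 3000 UMIs were each thinned at random to 3000, which left out 559; 1409 B-lineage cells of the same captures, thinned likewise, gave the background from free RNA. A Ly6a UMI was present in 0.886% of members and in 0.923% of B-lineage cells, which can transcribe Ly6a themselves, and in 0.305% of the other kept cells. Procr was present in 0.590% of members, 0% of B-lineage cells and 0.116% of the other kept cells, Fgd5 in 0.689%, 0.0710% and 0.0942%, and Vwf in 1.38%, 0.0710% and 2.12%. Cd34, which long-term stem cells of the mouse carry little of, was present in 51.7% of members (41.5% to 56.6% by replicate) and in 0.852% of B-lineage cells. Flt3 was present in 24.3% (17.5% to 29.0%) against 3.41%, and Meis1 in 56.4% (54.2% to 58.7%) against 7.59%. Cd48, an antigen of progenitors beyond the stem cell, was found in 34.8% against 25.1% and Satb1, a chromatin organiser, in 30.8% against 30.5%, where B-lineage cells transcribe both genes themselves. Of the 7 markers, all but Meis1 were used to choose the members, so their presence in members tests nothing. Single members did not all carry them at this depth. Hlf was present in 22.04% of thinned members, Myct1 in 23.25%, Mecom in 26.5%, Gcnt2 in 38.83%, Adgrl4 in 67.56% and Angpt1 in 78.75%. Transcripts of Procr, Vwf, Fgd5 and Ly6a were each found in under 2% of thinned members.

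Among genes outside the rule with at least 50 CPM in members, those that stood farthest above the remaining cells after Hmga2 were Mc5r, a melanocortin receptor (59.7 CPM against 6.64), Spns2, an exporter of sphingosine 1-phosphate (95.4 against 12.8), and Ctla2a, a protease inhibitor (202 against 27.9). Muc13, a cell-surface mucin, stood at 206 CPM against 39.7 and Cd27 at 78.3 against 16.6. The ratio was 7.48 for Spns2, 7.22 for Ctla2a and 5.20 for Muc13. These ratios are against all remaining cells together. In the lymphoid-primed progenitors alone Cd27 stood higher than in members, at 92.4 CPM. Ctla2a stood at 127 CPM there, Spns2 at 42.4, Muc13 at 34.0 and Mc5r at 18.4.

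Transcripts of other cell types were low for most types and present for a few. The selection limited other genes of neutrophils, erythroid cells, B cells, basophils or mast cells and megakaryocytes. Sums for these types in members were thus partly set by the rule. Neutrophil markers summed to 80.9 CPM in members against 4018 in the remaining cells, erythroid markers to 104 against 1904, B cell markers to 45.1 against 667 and macrophage markers to 8.998 against 68.1. S100a8, a granule protein of neutrophils, stood at 48.6 CPM against 2655. Basophil and mast cell markers summed to 320 against 1406 and monocyte markers to 621 against 2175. Endothelial markers were higher in members, 181 CPM against 94.0, most of it Pecam1 (112) and Egfl7 (56.5), which stem cells also transcribe; the defining vessel genes Kdr (2.09) and Cdh5 (5.95) were low and Gpihbp1 was at 0. The stromal sum was 38.0 against 10.1, of which Pdgfrb gave 33.0. Dendritic cell markers summed to 349 against 413 with Klk1 at 0, and megakaryocyte markers to 64.8 against 51.4 with Tubb1 at 0. The epithelial sum, which would include the tumour cells, was 30.3 against 23.1, of which Krt18 gave 21.0.

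Lineage priming was unequal. Genes of myeloid priming, led by Plac8, Mpo, Prtn3 and Ctsg, summed to 11040 CPM in members against 29000 in the remaining cells, with Mpo at 2326 against 4655. The megakaryocyte and erythroid priming list summed to 1344 against 1759, and the lymphoid priming list to 1908 against 1971. The megakaryocyte and erythroid list holds Car1, Pf4 and Itga2b, which the selection limited, so its sum in members was partly set by the rule. An Mpo UMI was present in 84.3% of thinned members and in 38.1% of thinned B-lineage cells. Gata1, the factor of erythroid and megakaryocyte cells, was present in 4.82% against 0.639%.

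Within the members, cells with more stem-gene UMIs had lower levels of most myeloid and most cell cycle genes. Members thinned to 3000 UMIs were placed in 4 bins of 0 to 2, 3 to 5, 6 to 9 and 10 or more stem-gene UMIs, which held 732 (24.0%), 781 (25.6%), 701 (22.99%) and 835 (27.4%) of them. Meis1 stood at 130, 305, 539 and 865 CPM from the lowest bin to the highest, Msi2 at 224, 359, 584 and 907, and Gata2 at 45.5, 142, 206 and 227. In the myeloid priming list 20 of 22 genes were lower in the highest bin than in the lowest, 15 of them in 8 of 8 replicates, while Csf3r, a growth factor receptor gene, went from 57.4 to 105 CPM and Nkg7 from 213 to 221. Mpo stood at 3282, 2353, 1398 and 708 CPM. Elane went from 1886 in the lowest bin to 211 in the highest, Ctsg from 1920 to 262, Irf8 (a monocyte and dendritic factor) from 423 to 43.5 and F13a1 from 269 to 13.6. In the megakaryocyte and erythroid priming list 21 of 22 genes were higher in the highest bin, 16 of them in 8 of 8 replicates. No counts over all genes are given beside these or the other list counts by bin, so they are not set against a background. Flt3 had no such order, at 126, 114, 107 and 129 CPM, and its highest bin was above its lowest in 3 of 8 replicates and below it in 5.

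**Figure D2:**
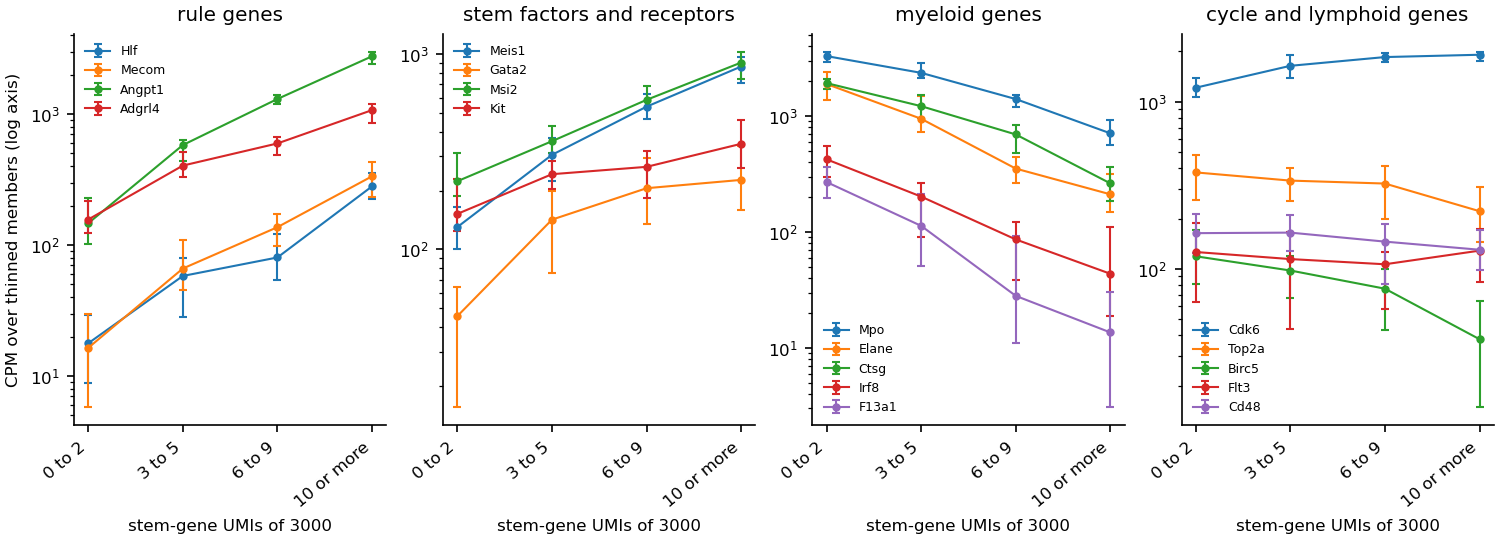
CPM, on a log axis, of genes in 4 panels (rule genes, stem factors and receptors, myeloid genes, cycle and lymphoid genes) against the bin of stem-gene UMIs after thinning to 3000 UMIs; points are values over all members of a bin and bars span the 8 replicates. Meis1 runs from 130 to 865 CPM and Mpo from 3282 to 708, while Flt3 lies between 107 and 129.

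Cell cycle transcripts moved with the same bins. UMIs from 3 or more genes of mitosis and G2 were found in 68.3%, 57.5%, 53.6% and 38.0% of the cells of the 4 bins, and from 3 or more S phase genes in 92.9%, 85.4%, 83.9% and 76.8%. Birc5, a mitotic protein, went from 119 CPM in the lowest bin to 37.9 in the highest, Ube2c from 116 to 32.7 and Top2a from 378 to 221. All 28 genes of the G2 and M list were lower in the highest bin than in the lowest, 13 of them in 8 of 8 replicates. Of 26 S phase genes 22 were lower and 4 higher, among them Mcm6 from 232 to 253. Of 25 quiescence genes 22 were higher in the highest bin, 11 of them in 8 of 8 replicates, with Txnip from 57.8 to 178 and Egr1 from 88.3 to 511. The other 3 were lower, the cell cycle inhibitor gene Cdkn1a from 56.9 to 38.7, Klf2 from 34.6 to 27.2 and Cdkn2c from 21.4 to 15.6. The kinase gene Cdk6 went from 1212 to 1909. Over all thinned members 53.9% had UMIs of 3 or more genes of mitosis and G2 (48.6% to 57.3% by replicate), against 74.5% of the remaining cells and 75.02% of B-lineage cells. Depth before thinning differed between the bins, with medians of 13940, 9306, 7724 and 5833 UMIs per cell, and its part in the order was not tested. The bins are ordered by genes of the selection, so these values describe the members and carry no test.

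Members with and without a Flt3 UMI differed in the lineage genes they held. Among 742 thinned members with Flt3 and 2307 without, Notch1 stood at 80.4 CPM against 35.5, Irf8 at 306 against 146, Satb1 at 236 against 114 and Mef2c at 939 against 564, each higher with Flt3 in 8 of 8 replicates. In the lymphoid priming list 14 of 22 genes were higher with Flt3, 7 of them in 8 of 8 replicates. Both counts include Flt3 itself, which set the split. The other 8 were lower, among them Bcl11a at 160 against 201, Ebf1 at 6.29 against 11.3 and Tcf7 at 0.899 against 8.09. No counts over all genes are given beside those of the lists. In the megakaryocyte and erythroid priming list 19 of 22 genes were lower with Flt3, 11 of them in 8 of 8 replicates, and 3 were higher, Selp at 30.6 against 22.97, Tfrc at 35.04 against 33.7 and Rap1b at 203.5 against 198. Among genes lower in 8 of 8 replicates were Gata1 at 4.04 against 23.3, Itga2b at 19.3 against 74.1, Gata2 at 64.7 against 187, Apoe at 61.6 against 280 and Mfsd2b at 2.25 against 36.1. Of the 7 markers 4 were higher with Flt3, Hlf at 159 CPM against 100.3 and Adgrl4 at 732 against 520.3 in 8 of 8 replicates, and 3 were lower, Meis1 at 399 against 493, Angpt1 at 1087 against 1290 and Myct1 at 89.4 against 107.

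Surgery was then compared with sham surgery in the members, for their share of marrow progenitors first. Members made up 13.8% and 14.2% of the cells of the batch 1 sham replicates and 13.1% and 15.4% of those of the batch 1 surgery replicates. In batch 2 the sham replicates had 11.7% and 13.9% and the surgery replicates 11.6% and 12.4%. The ranges of the groups overlapped, and the 95% Wilson intervals, which cover counting error only, ran from 10.2% at the lowest to 16.6% at the highest. The mean was 13.4% ± 1.13 (SD, n = 4) after sham and 13.1% ± 1.64 (SD, n = 4) after surgery, a difference of -0.300 percentage points with a two-sided exact permutation p of 0.743, where the smallest p possible is 0.0286. Within batches the difference was 0.226 points in batch 1 and -0.825 in batch 2. A difference of that size was not detectable with these replicates, and it ran from -1.06 to 0.211 points when each replicate was left out in turn, being positive without the replicate surgery 1 of batch 2.

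**Figure D3:**
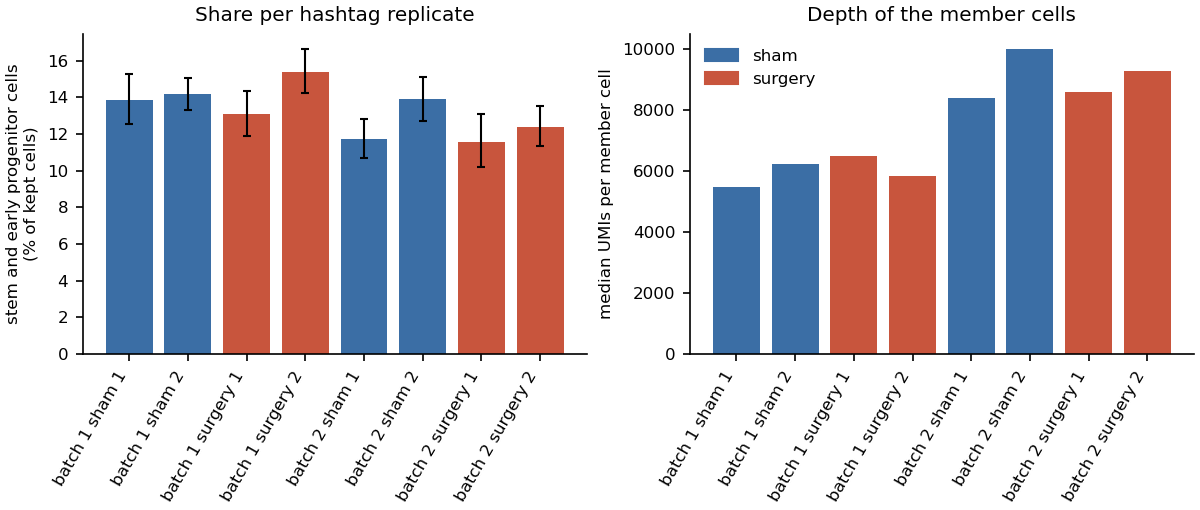
Bars show members as a percent of kept cells in each hashtag replicate (left, with 95% Wilson intervals) and the median UMIs per member (right), sham in blue and surgery in red. Shares lie between 11.7% and 14.2% for sham and between 11.6% and 15.4% for surgery, and depth is higher in batch 2 than in batch 1.

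The make-up of the members did not differ detectably between the groups. For 12 genes and the 2 phase lists, the share of thinned members with transcripts was compared over replicates, and 0 of 14 shares passed the threshold, with 0.954 the lowest adjusted p by exact permutation tests. For Flt3 the mean was 24.8% ± 4.15 after sham and 22.8% ± 3.99 after surgery (SD, n = 4). The Flt3 difference of -1.94 points had an exact permutation p of 0.543 and changed sign between batches, 3.99 in batch 1 and -7.87 in batch 2. The highest bin of stem-gene UMIs held 32.8% and 27.99% of the members of the batch 1 sham replicates, 26.9% and 34.9% for batch 1 surgery, 23.7% and 21.5% for batch 2 sham and 24.0% and 26.8% for batch 2 surgery. These values overlapped, with means of 26.5% ± 5.02 and 28.1% ± 4.68 (SD, n = 4).

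Gene by gene, 14 genes rose and 1 fell after surgery among 11744 tested on summed counts of the members with edgeR's quasi-likelihood test, batch as a term and a Benjamini-Hochberg adjusted p under 0.05. Those are 0.119% and 0.00851% of the genes tested, and 505 genes had an unadjusted p under 0.05. The 15 genes are Adam17, Tap2, Thbs1, Fyb2, Tex2, Ern1, Pgr, Myl10, Cux1, Spns2, Bpifc, Hgf, Nlrp3 and Trpc6, which rose, and Hdac9, which fell; each had the same sign in both batches. In 9 of the 14 all surgery replicates were above all sham replicates, and in Hdac9 all were below, against 1.2% and 1.06% of all genes tested that had no overlap in these directions. Fold changes below are log2 of surgery over sham ± SE, and adjusted p-values are from edgeR. The count that rose depended on single replicates: it was 9 without sham 2 of batch 1, 7 without sham 1 of batch 2, 9 without surgery 2 of batch 1 and 6 without surgery 2 of batch 2. For these genes the share of members holding a transcript and the transcripts per cell were summed together and not separated.

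Adam17, the protease that sheds tumour necrosis factor and other surface proteins, had the lowest p. It stood at 78.2 and 77.2 CPM in the batch 1 sham replicates and 68.5 and 75.3 in those of batch 2, and at 130.7, 133.9, 107.6 and 106.5 CPM in the surgery replicates in the same order. Every surgery replicate was above every sham replicate. The means were 74.8 ± 4.38 and 119.7 ± 14.6 CPM (SD, n = 4), a log2 fold change of 0.67 ± 0.06 with an edgeR adjusted p of 5.18e-05, and 0.77 in batch 1 and 0.58 in batch 2 alone. The gene lies at chr12:21323509-21373632 (GRCm38, whole gene span, as for all positions below). It kept its call in 19 of 19 alternative analyses, with a highest edgeR adjusted p of 0.00988 in batch 1 alone.

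Tap2, a subunit of the transporter that carries peptides to class I molecules, rose from 151.1, 158, 142 and 145 CPM in the sham replicates to 206, 215, 190.2 and 190.2 CPM in the surgery replicates, given as batch 1 and then batch 2. The groups did not overlap. The log2 fold change was 0.42 ± 0.05 with an edgeR adjusted p of 0.000373, and 0.44 and 0.41 by batch. Tap2 lies at chr17:34203527-34216321, beside other genes of antigen processing. Its partner Tap1 had a log2 fold change of 0.25 (edgeR adjusted p 0.581), Psmb9 0.16 and Psmb8 0.11, and none of the 3 passed.

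Thbs1 and Fyb2 had the largest fold changes on few UMIs, 136 and 126 over all members. Thbs1, a secreted matrix glycoprotein, stood at 3.02, 0.795, 0.708 and 0.622 CPM in the sham replicates and at 8.78, 12.7, 8.21 and 5.99 CPM in the surgery replicates. Its log2 fold change was 3.04 ± 0.35 with an edgeR adjusted p of 0.000498, 2.88 in batch 1 and 3.32 in batch 2, at chr2:118111876-118127133. The lowest surgery value was above the highest sham value. Fyb2, an adaptor of T cell receptor signalling, stood at 1.73, 1.27, 0.472 and 1.24 CPM after sham and at 8.78, 11.9, 3.19 and 6.42 CPM after surgery, with a log2 fold change of 2.73 ± 0.34 and an edgeR adjusted p of 0.0009 (chr4:104913456-105016863). Neither gene was limited to members: in the lymphoid-primed progenitors described below, Thbs1 stood at 11.3 CPM and Fyb2 at 11.9.

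**Figure D4:**
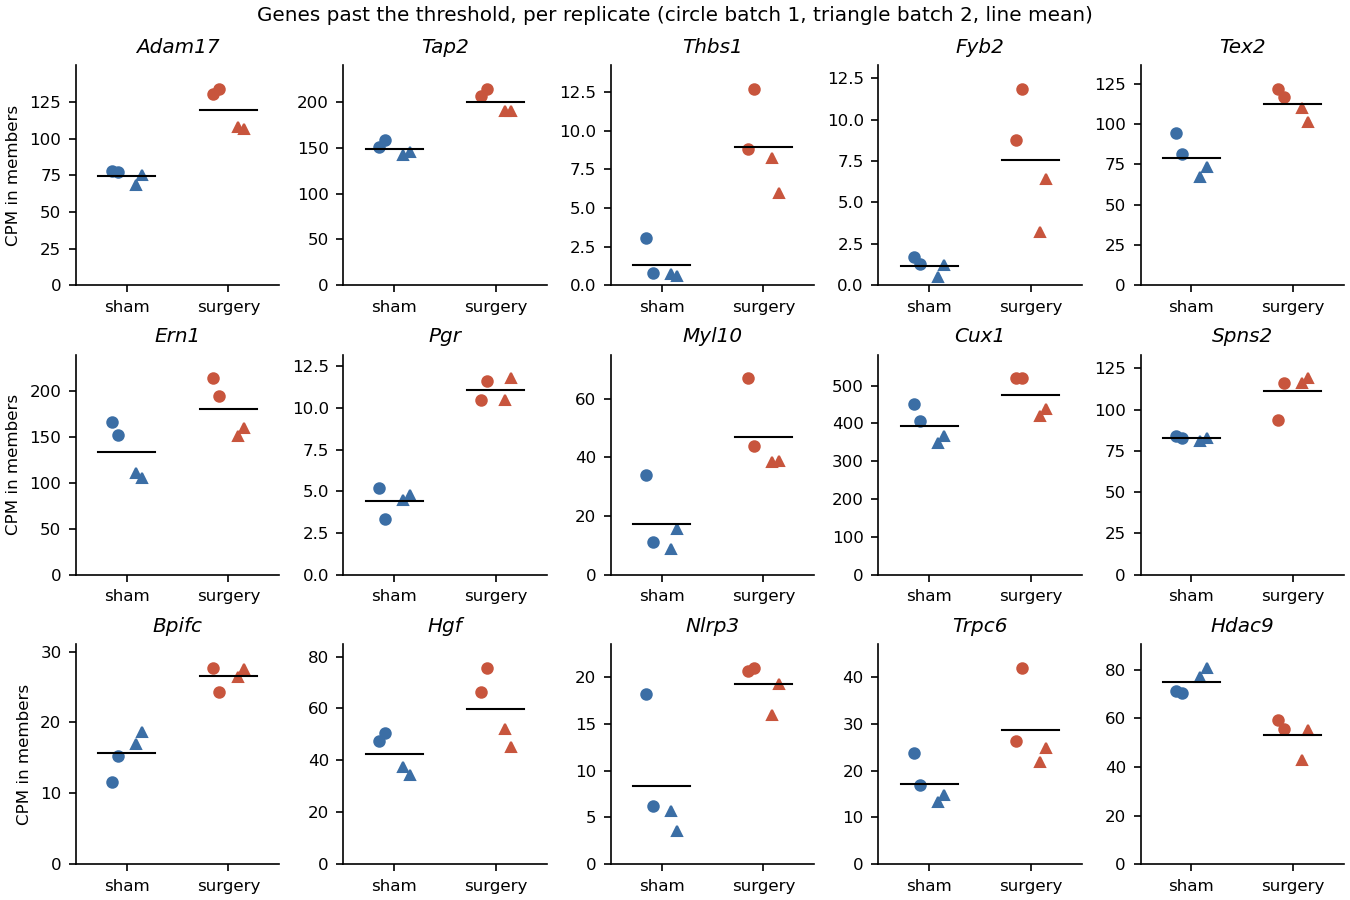
CPM of the 15 genes past the threshold in the members of each replicate, on linear axes from 0, with circles for batch 1, triangles for batch 2 and lines for group means. For Adam17 all 4 surgery replicates (106.5 to 133.9 CPM) lie above all 4 sham replicates (68.5 to 78.2), and for Hdac9 all 4 lie below.

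A pair of genes near each other on chromosome 11 rose together. Ern1 encodes the sensor kinase of the unfolded protein response and Tex2 a lipid-binding protein of the endoplasmic reticulum. Ern1 stood at 166, 152, 111 and 106 CPM in the sham replicates and at 214, 195, 151.0 and 160.4 CPM in the surgery replicates. Surgery was above sham within each batch, while the batch 2 surgery values overlapped batch 1 sham. The log2 fold change of Ern1 was 0.45 ± 0.06 with an edgeR adjusted p of 0.00126 with batch in the model and 0.9996 without it. Tex2 went from 79.0 ± 11.9 to 113 ± 9.03 CPM (SD, n = 4), a log2 fold change of 0.52 ± 0.07 with an edgeR adjusted p of 0.00105. Tex2 (chr11:106502147-106613423) and Ern1 (chr11:106394650-106487852) are 14.3 kb apart. Of the 24 genes tested from the list of the unfolded protein response, Ern1 alone passed.

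Pgr, the progesterone receptor, stood at 5.18, 3.34, 4.49 and 4.77 CPM after sham and at 10.5, 11.6, 10.5 and 11.8 after surgery, on 226 UMIs. The groups were apart, with a log2 fold change of 1.38 ± 0.20 and an edgeR adjusted p of 0.00366. Pgr is not a gene of members alone: it stood at 7.26 CPM over all members and at 54.7 in the lymphoid-primed progenitors. Trpc6, a cation channel 219.1 kb from Pgr on chromosome 9, went from 17.1 ± 4.65 to 28.8 ± 8.999 CPM (SD, n = 4), a log2 fold change of 0.80 ± 0.15 with an edgeR adjusted p of 0.0462. Pgr lies at chr9:8899833-8968611 and Trpc6 at chr9:8544142-8680741. Trpc6 values overlapped between the groups across batches, with 23.8 CPM in sham 1 of batch 1 and 21.9 in surgery 1 of batch 2. The call was kept in 14 of 19 alternative analyses for Pgr and in 8 of 19 for Trpc6.

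Myl10, a myosin light chain gene of lymphoid precursors, and Cux1, a homeodomain transcription factor gene, are 125.7 kb apart on chromosome 5. Myl10 stood at 34.1, 10.96, 8.73 and 15.6 CPM in the sham replicates and at 66.9, 43.9, 38.3 and 38.7 CPM in the surgery replicates, and the groups did not overlap. Its log2 fold change was 1.59 ± 0.24 with an edgeR adjusted p of 0.00633, though DESeq2 gave an adjusted p of 0.279. Myl10 (chr5:136693146-136701094) is not a gene of members alone, at 320 CPM in the lymphoid-primed progenitors. Cux1 (chr5:136248135-136567490) went from 393 ± 45.9 to 475 ± 52.1 CPM (SD, n = 4), a log2 fold change of 0.28 ± 0.04 with an edgeR adjusted p of 0.0104. Cux1 values overlapped across batches, and Cux1 stood at 829 CPM in the lymphoid-primed progenitors against 426 in members.

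Of the remaining genes, Spns2 and Bpifc were far higher in members than in the other kept cells summed. Spns2 was at 95.4 CPM in members against 12.8 in the other kept cells, and Bpifc at 20.6 against 2.50. Bpifc did not set members apart from the lymphoid-primed progenitors, where it stood at 18.4 CPM. Spns2 stood at 42.4 CPM in those cells. Spns2 was tightly grouped after sham at 83.8, 83.0, 80.7 and 82.9 CPM, and stood at 93.9, 116, 116 and 118.9 CPM after surgery, a log2 fold change of 0.44 ± 0.07 with an edgeR adjusted p of 0.0107 (chr11:72451638-72489904). Bpifc, of the family of lipid-binding defence proteins, rose from 15.6 ± 2.998 to 26.5 ± 1.58 CPM (log2 fold change 0.74 ± 0.12, edgeR adjusted p 0.0143). Hgf, hepatocyte growth factor, rose from 42.4 ± 7.73 to 59.7 ± 13.8 CPM (0.48 ± 0.09, edgeR adjusted p 0.0324). Nlrp3, the inflammasome sensor, rose from 8.38 ± 6.60 to 19.2 ± 2.28 CPM (1.44 ± 0.27, edgeR adjusted p 0.0389), with sham 1 of batch 1 at 18.1 CPM beside the surgery values. Spns2 and Hgf had lower estimates when cells were thinned before selection, log2 fold changes of 0.15 and 0.14. Of 19 alternative analyses, the call was kept in 12 for Spns2, 9 for Bpifc, 7 for Hgf and 5 for Nlrp3. For Nlrp3 it was lost with DESeq2, among others. Over all members Nlrp3 stood at 12.3 CPM, and in the lymphoid-primed progenitors at 38.7.

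Hdac9, a class IIa histone deacetylase, was the only gene of the 11744 that fell. It stood at 71.2, 70.4, 77.0 and 80.9 CPM in the sham replicates and at 59.5, 55.5, 42.9 and 55.4 CPM in the surgery replicates, with no overlap. The log2 fold change was -0.47 ± 0.09 with an edgeR adjusted p of 0.0482, -0.31 in batch 1 and -0.63 in batch 2 (chr12:34047580-34917095). Hdac9 stood at 66.0 CPM over all members and at 338 in the lymphoid-primed progenitors. The call was kept in 6 of 19 alternatives. It was lost without either batch 1 sham replicate, without surgery 2 of batch 1, and without any replicate of batch 2.

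Of the markers, Meis1 was the only one outside the selection, and it did not pass, with a log2 fold change of 0.14 ± 0.05 and an edgeR adjusted p of 0.9995. The 6 genes of the selection are given as values with no test, since their UMIs chose the cells. Hlf went from 85.5 ± 6.53 to 102 ± 4.86 CPM (SD, n = 4), a log2 fold change of 0.25. The median over the 7 markers was 0.14, with 0.13 in batch 1 and 0.17 in batch 2. As 6 of the 7 chose the cells, that median is a description and supports nothing about surgery. Over all 11744 genes tested the median was 0.0001, and 5874 were positive. Of 30 stem cell transcription factors tested, 22 were positive with a median of 0.07 and 0 passed, and of 22 surface antigens 15 were positive with a median of 0.05 and 0 passed.

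Few genes of the priming lists passed. In the megakaryocyte and erythroid list 19 of 22 genes were positive, with a median log2 fold change of 0.14 (0.09 and 0.15 by batch), and 0 passed; the erythroid factor genes Klf1, at 0.51, and Gata1, at 0.48, did not pass. That median was 0.05 without sham 2 of batch 1, 0.06 without surgery 2 of batch 1, 0.06 without surgery 1 of batch 2 and 0.09 without sham 2 of batch 2. Markers of megakaryocytes had 6 of 6 tested genes positive, with 0 passing and a median of 0.24 (0.17 and 0.30 by batch), or 0.07 without sham 2 of batch 1 and 0.14 without surgery 2 of batch 1. They summed to 55.1 to 82.9 CPM in sham replicates and 62.9 to 91.7 in surgery replicates, and their part in the priming values was not tested. In the lymphoid list 3 of 14 were positive with a median of -0.06, and Myl10 alone passed. Ebf1, the B cell factor, had a log2 fold change of -0.74 without passing, or -0.28 without sham 1 of batch 1, -1.21 without sham 2 of batch 1 and -0.51 without sham 1 of batch 2. In the myeloid list 10 of 22 were positive with a median of -0.05, and the nearest to the threshold was Cebpa, the factor of granulocyte and monocyte fate, from 95.7 ± 1.94 to 116 ± 3.65 CPM (SD, n = 4; log2 fold change 0.27 ± 0.06, edgeR adjusted p 0.0845). The markers of monocytes, a cell type that the sort could hold, had a median of -0.22, with 1 of 9 positive and 0 passing, and of -0.05 in batch 1 and -0.38 in batch 2. It was -0.10 without sham 1 of batch 2 and -0.33 without surgery 2 of batch 1. Their summed level in members was 529 to 870 CPM in sham replicates and 518 to 630 in surgery replicates, and their part in the myeloid values was not tested.

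Few genes of the cycling, stress and inflammation lists passed. The median log2 fold change was 0.0003 for 26 S phase genes, 0.04 for 28 genes of G2 and M, -0.0059 for 21 quiescence genes, 0.01 for 19 hypoxia genes and 0.0049 for 24 genes of the unfolded protein response. Of the 26 NF-kB and inflammation genes 11 were positive, and Nlrp3 and Adam17 passed. Among 19 antigen processing genes 11 were positive and Tap2 passed. Cd74, the class II invariant chain, had a log2 fold change of -1.67 with an edgeR adjusted p of 0.881. Without sham 1 of batch 2, where Cd74 stood at 26.4 CPM, the log2 fold change was -0.57. The 26 interferon-stimulated genes had a median of 0.08 that differed in sign between batches, -0.11 in batch 1 and 0.14 in batch 2, and the 17 immediate early genes likewise, 0.11 over both, -0.17 in batch 1 and 0.30 in batch 2. Vegfa, a hypoxia target, went from 8.45 to 15.4 CPM, a log2 fold change of 0.83 with an edgeR adjusted p of 0.378. Pim1, a kinase gene induced by cytokines, went from 197 to 247 CPM, 0.34 with an edgeR adjusted p of 0.158.

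**Figure D5:**
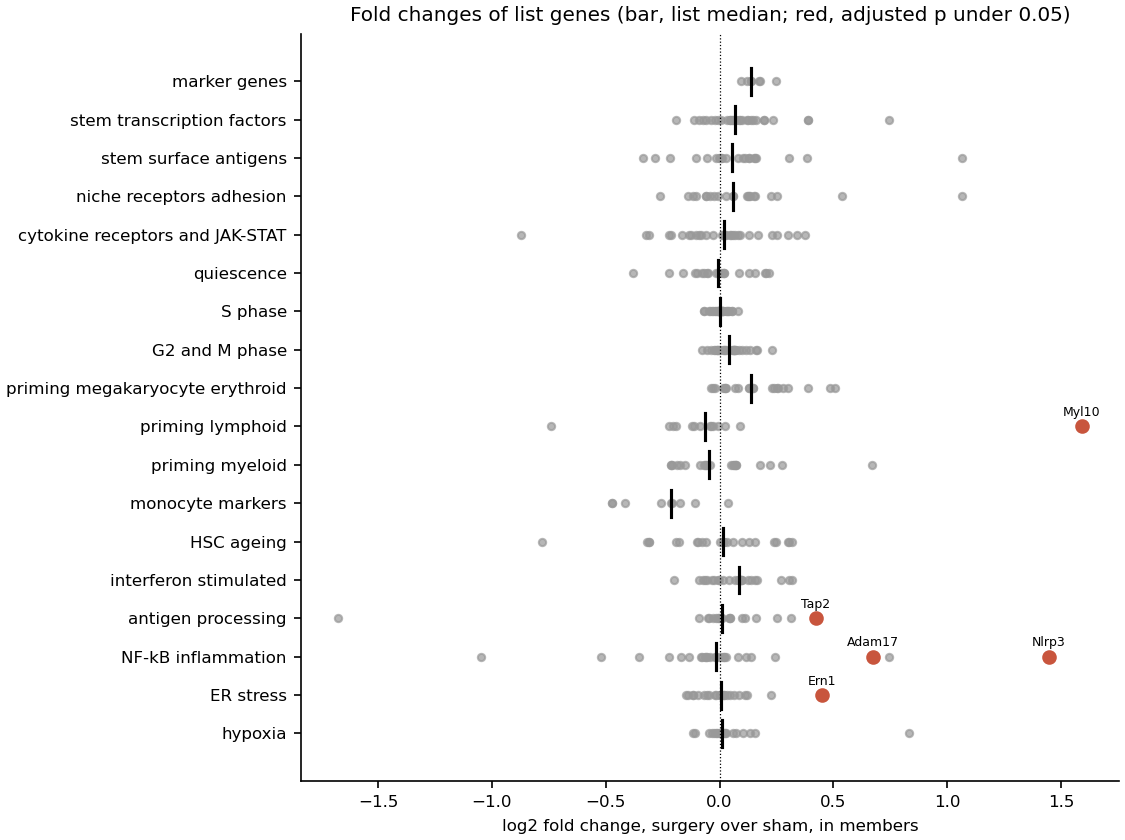
Log2 fold change of surgery over sham in members for each tested gene of each list (points), with bars for list medians, red for genes past the threshold and a dotted line at the median of all genes tested. The median is 0.14 for the 7 markers and for the megakaryocyte and erythroid priming list, -0.22 for the monocyte markers, and 0.0001 for all genes. Of the 7 markers all but Meis1 chose the cells, so their median is a description only.

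Whether surgery acted differently on the members than on related cells was tested as a difference of fold changes. Against 285 Cd34-positive progenitors with at most 1 stem-gene UMI, 0 of 10228 genes were higher and 1 was lower in members by edgeR, 0.0% and 0.00978%, with 446 at an unadjusted p under 0.05. The gene was C77080, with a difference of -3.12 ± 0.54 and an edgeR adjusted p of 0.0024. It went from 53.1 to 39.3 CPM in members and from 3.69 to 28.8 CPM in the comparison cells, where it had 59 UMIs. The number higher was 1 without sham 1 of batch 2 and 2 without surgery 1 of batch 2. The number lower was 4 without sham 1 of batch 2, 5 without surgery 1 of batch 1, 2 without surgery 2 of batch 1 and 0 without surgery 2 of batch 2.

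Against 819 lymphoid-primed progenitors (at least 2 UMIs of Dntt and 1 of Flt3) the fold change was higher in members for 11 of 10835 genes, 0.102%, and lower for 9, 0.0831%, by edgeR. Ern1 rose in members by 0.45 and had a log2 fold change of 1.19 in the lymphoid-primed cells, so its fold change was lower in members by 0.73 ± 0.14 (difference -0.73, edgeR adjusted p 0.00596). Hlf is also among the 11, but it is a gene of the selection, so its difference supports nothing here. Egr1, an immediate early factor of resting stem cells, had 0.08 and -0.65, a difference of 0.78 ± 0.17 with an edgeR adjusted p of 0.0304. Mif, a cytokine gene, had -0.09 and 0.41, a difference of -0.52 ± 0.08 with an edgeR adjusted p of 0.000789. Of the 15 genes that passed within the members, Ern1 alone was among these 20. Without sham 1 of batch 1 the numbers were 43 higher and 23 lower. They were 6 and 4 without sham 1 of batch 2, 5 and 4 without sham 2 of batch 2, 1 and 2 without surgery 2 of batch 1, and 2 and 3 without surgery 2 of batch 2; without surgery 1 of batch 2, 4 were higher.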

How the data were processed

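The deposited files hold raw UMI counts per gene and barcode for 2 captures made with the PIPseq T20 V4.0PLUS kit, per the labels' protocols. Cell Ranger and GRCm38 come from the submitters' processing notes; the version and how strand and multiply matching reads were handled are not given in the sources used here, so overlapping genes cannot be separated further. Hashtag rows, 22.2% of counts in batch 1 and 16.1% in batch 2, were kept out of gene totals.

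Of 32273 barcodes, 30641 had at least 1000 gene UMIs and at most 10% mitochondrial UMIs. Exactly 1 hashtag of at least 200 counts was found on 26943 of these, none on 2774 (9.05%) and several on 924 (3.02%). The barcodes with several were left out as doublets, 101 of which met the rest of the rule. No other doublet caller was run, so doublets within 1 replicate remained, and leaving out the top 5% of cells by UMIs was an alternative. The members, the gene lists and the named genes were chosen with earlier results of these data known.

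Counts of the members were summed per replicate and tested with edgeR 4.0.16 in R 4.3.3 (filterByExpr, TMM factors from 0.979 to 1.018, batch and group as terms), with Benjamini-Hochberg adjustment over all genes tested. Differences between kinds of cell were an interaction term with replicate in the model. Shares were tested over replicates with an exact permutation test, two-sided, of 70 splits. The text names every gene past the threshold, the markers, the genes of the share tests, and in each list those with the highest CPM or the largest fold change. Some genes that this rule names are not reported here. Values in bins, splits and member against rest are descriptions of genes picked from the lists after their values were seen. Alternatives were DESeq2 1.42.0, no filter, no batch term, a replicate block, each replicate left out, each batch alone, other thresholds and thinning. Python 3.11.15, numpy 2.4.6, scipy 1.17.1, pandas 2.3.3, limma 3.58.1 and matplotlib 3.10.9 were also used. The edgeR tests were checked on simulated data. Gene positions come from the mouse annotation on GRCm38 and promoters from RefSeq.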

Additional observations from a re-analysis of the deposited data

Results flagged for a closer look

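In 146 groups of 4 replicates, a lone value was looked for by Dixon's test at the 95% level, which chance passes in about 1 in 20 groups. Among the genes, the highest sham replicate of Thbs1 (3.02 CPM, the next 0.795), the lowest surgery replicate of Spns2 (93.9, the next 116), and the lowest sham replicates of Hlf (75.8, the next 88.1) and Myct1 (66.9, the next 79.1) stood alone. The share of members had its lowest sham replicate at 11.7%, apart from the next at 13.8%. The share of members with Fgd5 had a sham replicate at 0% with the next at 0.772%. The share with G2 and M genes had its lowest surgery replicate at 48.6% and the next at 56.0%. For list sums, the T and NK cell markers had a low sham replicate at 246.5 CPM, the megakaryocyte markers a high sham replicate at 82.9 and a high surgery replicate at 91.7, and the cytokine receptor list a high surgery replicate at 1920 CPM, followed by 1746.

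The other results listed here are fold changes that differed between members and a related kind of cell by edgeR's interaction term, each a difference on the log2 scale, members minus the other cells. Against Cd34-positive progenitors the difference was -3.12 for C77080. Against lymphoid-primed progenitors, those higher in members were Nkx2-3 at 3.78, Sdk1 at 3.19, Hbb-bt at 1.32, Il15 at 1.24, Hlf at 1.23, Mir99ahg at 0.83, Egr1 at 0.78, Cnn2 at 0.75, Ccl4 at 0.71, Mctp1 at 0.59 and Runx2 at 0.47. Those lower in members were Ly6d at -2.61, Khdrbs3 at -0.97, Ern1 at -0.73, Tspan13 at -0.55, Dctpp1 at -0.55, Mif at -0.52, Sec61b at -0.49, H2az1 at -0.42 and Atp5b at -0.38. Hlf is a gene of the selection, so its value is listed only. In the lymphoid-primed cells Nkx2-3 rested on 53 UMIs and Sdk1 on 43. Ly6d stood at only 2.16 CPM after sham and 0.552 after surgery in members, and had too few UMIs to be tested within members. Its levels in the lymphoid-primed cells were 150.3 and 262.5 CPM.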

How the results depend on the processing

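All 15 called genes kept their sign in the alternatives run. At least 12 alternatives kept the call for 10 of them, and Adam17 kept it in 19 of 19. The number of genes that rose in members was 3 in batch 1 alone, 3 with cells thinned to 3000 UMIs before selection, 5 with no batch term and 40 with no low-count filter, and ran from 6 to 13 with each replicate left out. The number that fell was 0 with at least 3 stem-gene UMIs, in batch 1 alone, with thinning, with a hashtag minimum of 500 and with no batch term, 7 in batch 2 alone and 19 with no filter, and from 0 to 2 with each replicate left out. With a replicate block 11 rose and 0 fell. Deviations of same-numbered replicates correlated at 0.0558 in batch 1 and 0.0146 in batch 2. With 2 replicates per group in each batch, these correlations cannot decide whether the numbers pair the replicates. Against Cd34-positive progenitors, thinning gave 1 higher and 0 lower, batch 1 alone 0 lower, batch 2 alone 4 lower and no filter 3 lower; leaving out replicates gave 0 to 2 higher and 0 to 5 lower. Against lymphoid-primed progenitors, thinning gave 0 higher and 3 lower, no filter 26 and 31, and batch 1 alone 3 lower; leaving out replicates gave 1 to 43 higher and 2 to 23 lower. The causes were not tested. In batch 1 alone the share of members differed by 0.226 points and the share with Flt3 by 3.99 points, and the share difference ran from -1.06 to 0.211 with each replicate left out. Mecom had a log2 fold change of -0.042 in batch 1 alone and -0.044 with thinning, and Angpt1 -0.050 with thinning, against positive values otherwise. Of 681 list medians under an alternative, 662 moved by less than their spread. Depth limits genes of few UMIs such as Thbs1 and Fyb2.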
